A study of Mus musculus with 36 samples.

Results

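A set of 69 genes, of the 12762 in the deposited table, differed by at most 0.4 log2 units between Ikaros and control cells through 12 h. The set was low in the Ikaros cells at 24 h. The genes were chosen by their own measured values. Each had a mean of at least 9.5 log2 units over the 36 libraries, a difference between the means of the Ikaros and control cells of at most 0.4 log2 units in either direction at 0, 2, 6 and 12 h, and a difference of -1.2 or lower at 24 h. Their values at these times therefore describe the choice and carry no test. The comparison at 18 h was not used to choose them, except that the 18 h libraries count in the overall mean, and it is the comparison tested here.

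The cells were B3, a mouse pre-B cell line. The Ikaros cells carried a retroviral vector with HA-tagged wild-type Ikaros joined to the hormone-binding domain ERt2 of the estrogen receptor, followed by GFP, so that 4-hydroxy-tamoxifen (4-OHT) moves the fusion protein to the nucleus. The control cells carried the vector with ERt2 and without Ikaros, and the labels give 0.5 uM 4-OHT for every library of either line. The labels list the drug at 0 h as well, whereas the study's methods describe the 0 h cells as untreated and collected apart from the others. Each line was sampled at 0, 2, 6, 12, 18 and 24 h in 3 numbered culture batches, which were batches 1, 2 and 4 at 0 h and batches 1, 3 and 4 afterwards. Both lines are transduced derivatives of a single established line, and the Ikaros protein comes from a viral promoter on top of the endogenous gene, so the cells model added nuclear Ikaros and not its normal level.

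Values are log2 expression after the authors' normalization, in which a difference of -1 is a halving. Poly(A) RNA was sequenced in bulk with a stranded kit, and the table holds no counts, so the number of reads behind each value is unknown. In bulk libraries, fewer cells of a kind and less of a transcript per cell cannot be told apart. Library medians lay between 11.70 and 11.73. Ikzf1, which encodes Ikaros, read 14.46 ± 0.28 (SD, n = 3) in the control and 20.66 ± 0.01 in the Ikaros cells at 18 h, and 14.70 ± 0.09 against 19.89 ± 0.16 at 0 h, as the line labels require. All 11 pre-B cell markers examined were in the table and 7 of them were at or above the median gene level of 11.72, whereas 0 of 5 T cell and 0 of 4 fibroblast markers were in it. The myeloid markers Lyz2 and Itgam averaged 6.66 and 6.30, and the erythroid markers Klf1 and Epor 7.89 and 6.19.

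Ikaros is a zinc finger transcription factor that B cell precursors need to leave the large, cycling pre-B stage for the small, resting one. Growing and dividing cells make serine, folate-bound one-carbon units, deoxynucleotides, histones, mitochondrial proteins and the sugar chains of new glycoproteins. Genes for each of these processes were among the 69, and the account below is ordered by what their products do. The role groups were drawn up by hand after the genes were known.

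Short stretches before the RefSeq starts of some of these genes are shown first, because Ikaros acts by binding DNA. They come from RefSeq on GRCm38.p6 and hold the 250 bases before the RefSeq start, written 5′ to 3′ on the strand of the gene. The gene positions given further below are from GENCODE, whose starts can differ. By those positions a large part of the Psph and Clpb stretches, and smaller parts of the Phgdh and Alg8 stretches, lie inside the gene. Capitals mark matches to 10 short motifs on either strand. These were the core bound by Ikaros (TGGGAA), the E-box of Myc-type factors (CACGTG), the site of E2F factors (TTTCCCGC), the CCAAT box of NF-Y, the Ets site (CCGGAAG), the cyclic AMP element CRE (TGACGTCA), the NRF1 site (GCGCATGCG), the GC box of Sp factors (GGGCGG), the TATA box (TATAAA) and letters of the amino acid response element (TGATGNAA, added after the genes were seen). The E2F letters overlap those of the Ikaros core on the opposite strand, and a match is a run of letters and not a site shown to be bound. The first 3 stretches belong to the serine and glycine enzymes Phgdh, Psph and Shmt2, and the others to Alg8, Clpb and Eno1, which lead their own groups below.
Phgdh, chr3:98339970-98340219, minus strand: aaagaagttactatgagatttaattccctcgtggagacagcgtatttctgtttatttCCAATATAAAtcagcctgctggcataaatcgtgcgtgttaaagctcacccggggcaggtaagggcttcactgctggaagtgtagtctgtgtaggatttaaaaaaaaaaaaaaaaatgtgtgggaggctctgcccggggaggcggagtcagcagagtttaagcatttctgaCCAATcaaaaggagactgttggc
Psph, chr5:129787254-129787503, minus strand: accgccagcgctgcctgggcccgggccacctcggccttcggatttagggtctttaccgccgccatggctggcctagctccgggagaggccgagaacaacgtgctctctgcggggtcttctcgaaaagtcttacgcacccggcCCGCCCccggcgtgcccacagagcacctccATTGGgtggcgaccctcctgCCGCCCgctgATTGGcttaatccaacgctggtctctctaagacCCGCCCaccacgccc
Shmt2, chr10:127522445-127522694, minus strand: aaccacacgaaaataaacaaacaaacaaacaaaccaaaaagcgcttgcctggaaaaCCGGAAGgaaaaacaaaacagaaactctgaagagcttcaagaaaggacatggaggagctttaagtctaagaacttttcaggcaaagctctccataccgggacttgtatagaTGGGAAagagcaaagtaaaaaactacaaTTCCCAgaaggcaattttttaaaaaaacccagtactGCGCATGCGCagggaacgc
Alg8, chr7:97371367-97371616, plus strand: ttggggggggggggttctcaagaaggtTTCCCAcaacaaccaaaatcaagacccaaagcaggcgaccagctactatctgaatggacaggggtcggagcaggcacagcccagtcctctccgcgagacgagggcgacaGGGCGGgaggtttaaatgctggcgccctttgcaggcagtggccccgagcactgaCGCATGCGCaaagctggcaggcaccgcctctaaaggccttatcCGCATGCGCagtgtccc
Clpb, chr7:101663501-101663750, plus strand: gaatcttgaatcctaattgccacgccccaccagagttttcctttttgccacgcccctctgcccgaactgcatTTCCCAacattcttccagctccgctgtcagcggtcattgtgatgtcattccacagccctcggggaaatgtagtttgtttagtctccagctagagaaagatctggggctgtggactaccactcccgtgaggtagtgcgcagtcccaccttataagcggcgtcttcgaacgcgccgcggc
Eno1, chr4:150236458-150236707, plus strand: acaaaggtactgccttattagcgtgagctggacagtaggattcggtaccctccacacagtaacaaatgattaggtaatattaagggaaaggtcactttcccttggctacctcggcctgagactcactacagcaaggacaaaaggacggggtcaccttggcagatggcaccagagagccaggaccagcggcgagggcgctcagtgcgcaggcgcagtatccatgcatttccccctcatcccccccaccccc

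The 3 serine and glycine genes did not hold the same letters. Phgdh had the CCAAT box at -193 and -23, counted from the RefSeq start, the former overlapping a TATA box by 1 base, and no Ikaros core. Psph had 2 inverted CCAAT boxes and 3 inverted GC boxes, all of them inside the gene by its GENCODE position. Shmt2 had the Ikaros core on the plus strand of the gene at -83 and on the other at -55, an Ets motif at -194 and overlapping NRF1 letters at -19. Alg8 and Clpb each held the Ikaros core once, inverted, and the Eno1 stretch held none of the 10 motifs.

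A stretch was matched for 54 of the 69 genes and for 9237 genes of the table. The Ikaros core was in 14 of the 54 (25.9%), against 20.0% of the matched genes of the table and 21.6% of all 32851 stretches. Ets letters were in 13 of the 54 (24.1%) against 15.1% of the matched genes, the GC box in 36 (66.7%) against 59.3%, and the CCAAT box in 18 (33.3%) against 37.2%. The E-box was in 3 (5.56%) against 8.53%, CRE in 3 (5.56%) against 2.94%, NRF1 in 2 (3.70%) against 3.29%, the TATA box in 2 (3.70%) against 5.94%, and the amino acid response letters in 1 (1.85%, Ung) against 2.01%. The E2F letters were in 0 of the 54 and in 1.87% of the matched genes, which says only that this spelling is not in these windows. Median GC content of the stretches was 60.0% for the 69 genes' matched members and for the table alike. These shares are descriptions without a test.

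The common course of the 69 genes, with small differences to 12 h and a large one at 24 h, is set by the rule that chose them. The values in this paragraph describe it without a test. Averaged over the genes, each centred on its own mean over all libraries, the 3 Ikaros libraries read between -0.01 and 0.15 at 12 h, between -0.71 and -0.60 at 18 h and between -1.23 and -1.09 at 24 h. The control libraries stayed between 0.10 and 0.39 at all 6 times. The Ikaros cells were not flat before 12 h. Their mean was 0.07 at 0 h, highest at 2 h with 0.21, and 0.06 at 12 h. From 2 to 12 h 50 of the 69 genes were lower in the Ikaros cells (median -0.13), against 29 in the control cells (median 0.02). The median change of all genes over this step was 0.01 in either line. Counted from 0 h to 12 h, 41 of the 69 were lower in the Ikaros cells (median -0.06) and 17 in the control cells (median 0.08). From 12 to 18 h all 69 genes were lower in the Ikaros cells, by a median of -0.67 log2 units, and from 18 to 24 h all 69 were lower again, by -0.48. In the control cells the median change was -0.02 and 0.09 over the same steps.

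**Figure D1:**
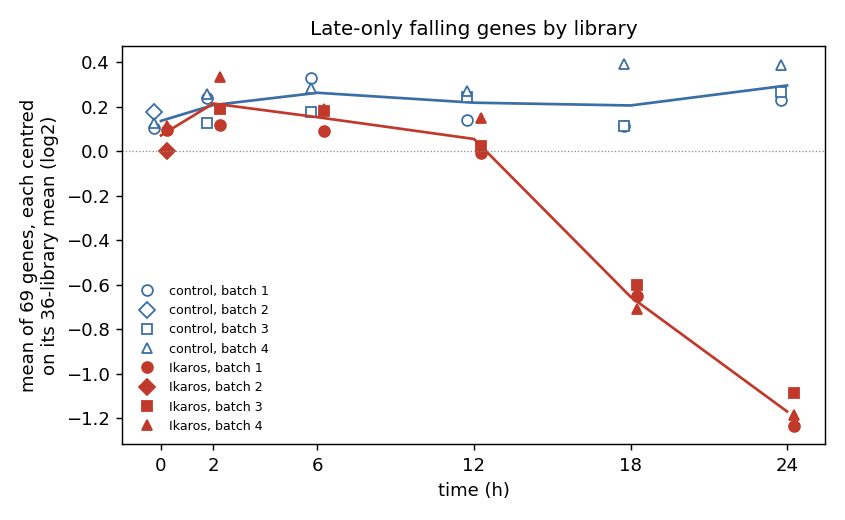
Mean of the 69 genes in each of the 36 libraries (vertical axis, log2, each gene centred on its mean over all libraries) against time in hours, with open symbols for control and filled symbols for Ikaros cells, a symbol shape for each culture batch and lines through the group means. The Ikaros libraries lie between -0.71 and -0.60 at 18 h and between -1.23 and -1.09 at 24 h, while the batch 4 control library at 18 h is the highest at 0.39.

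Over the times that chose the genes, the median difference between the lines was -0.08 (0 h), 0.02 (2 h), -0.15 (6 h), -0.19 (12 h) and -1.40 (24 h). The limit of 0.4 did not hold every gene at 0 before 18 h. At 12 h 58 of the 69 (84.1%) were already on the low side, and the largest early difference of a gene had a median of 0.31 and was above 0.3 in 39 genes. Over all genes the median 12 h difference was -0.01, and the share on the low side is not given here. Trap1, at -0.38 close to the limit, is an example. Its 12 h Ikaros values of 14.46, 14.45 and 14.33 already lay below the controls of 14.81, 14.72 and 14.84. How many genes were separated in this way at 12 h was not counted. The 24 h differences ran from -2.30 (Phgdh) to -1.201 (Cox16), with 47 genes above -1.5 and 4 genes at -2 or lower. Those 4 were Phgdh, Impa2 (-2.16), Eno1 (-2.12) and Ung (-2.01).

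**Figure D2:**
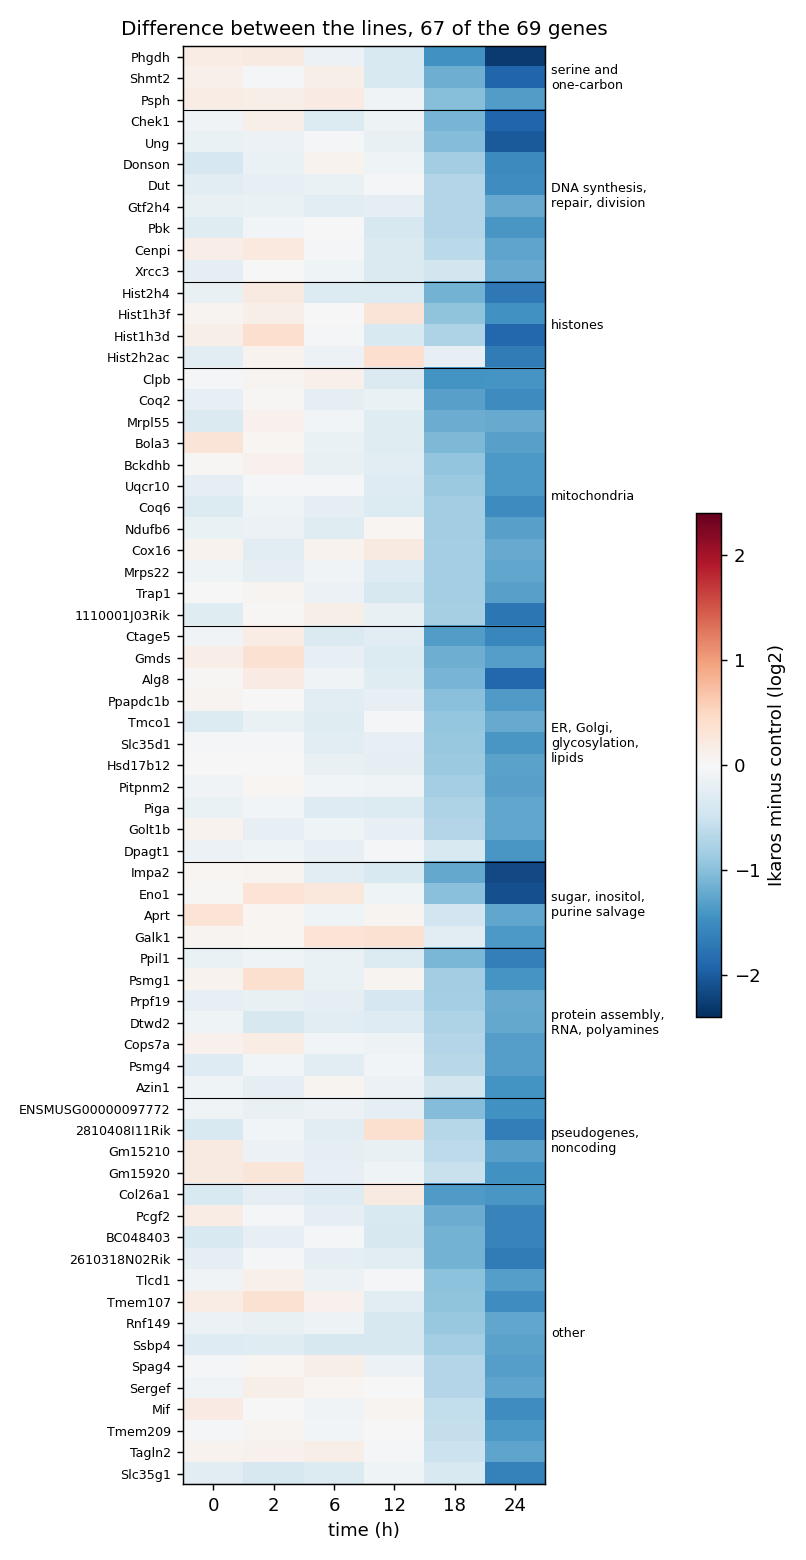
Difference of the group means, Ikaros minus control, for 67 of the 69 genes (rows, by role group and then by the 18 h difference) at the 6 times in hours (columns), in log2 units with blue for lower in Ikaros cells. The columns to 12 h are pale because the choice of genes limits them to 0.4, the 18 h column runs from -1.46 to -0.20, and the 24 h column was required to be at -1.2 or lower.

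At 18 h every one of the 69 differences was negative, as were 50.9% of those of all 12762 genes. In the limma fit over all genes 59 of the 69 (85.5%) were called lower in Ikaros cells at a Benjamini-Hochberg adjusted p under 0.05, 10 were not called, and 0 were called higher. Of all genes tested, 29.2% were called lower and 29.0% higher. The median 18 h difference of the 69 genes was -0.83, against -0.02 over all genes, and standard errors ran from 0.07 to 0.52 with a median of 0.16. In 63 of the 69 genes (91.3%, against 32.4% of all genes) the 3 Ikaros values lay below all 3 control values. A further 1099 genes met the level and the 24 h threshold but not the early limit. At 18 h 99.2% of those had a negative difference and 95.4% were separated in this way. Low values at 18 h thus go with being low at 24 h and are not particular to the 69. A difference of -1 or lower with a call was reached by 21 genes (30.4%), against 13.8% of all genes tested.

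**Figure D3:**
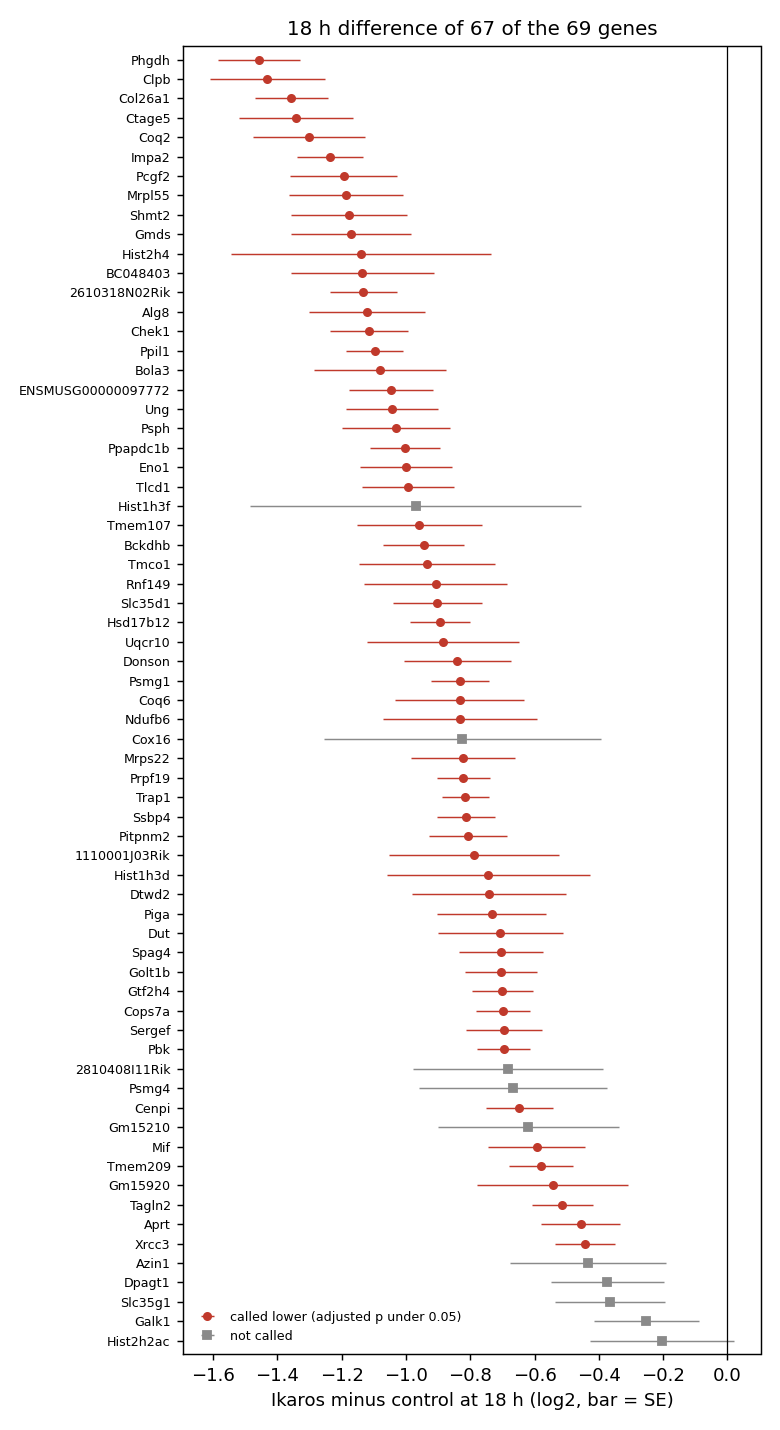
Ikaros minus control difference at 18 h for 67 of the 69 genes (horizontal axis, log2, bars are the limma standard error), ordered by size, with circles for genes called lower at an adjusted p under 0.05 and squares for the 10 not called. Phgdh is lowest at -1.46 and Hist2h2ac highest at -0.20.

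The 18 h libraries were not alike in these genes. The batch 4 control library was the highest of the 3 controls in 41 of the 69 genes and the batch 3 control in 9. Taken batch by batch, the median difference of the Ikaros from the control library was -0.73 (batch 1), -0.67 (batch 3) and -1.10 (batch 4), with 68, 69 and 68 of the 69 genes below 0. Replicates 1, 2 and 3 at 18 h are batches 1, 3 and 4. Without batch 4 the median was -0.72 and 54 of the 69 genes were called. The share of all genes called in that fit is not given here.

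Serine and one-carbon metabolism gave 3 of the 69 genes, and all 3 were called lower at 18 h. The counts by role group here and below are to be read against the 29.2% of all genes called lower. Genes without a call also had negative differences. Phgdh (ENSMUSG00000053398, GRCm38 chr3:98313170-98339990, minus strand) makes the first committed step from the glycolytic intermediate 3-phosphoglycerate to serine. It read 15.50, 15.50 and 15.86 in the control libraries of batches 1, 3 and 4 at 18 h, and 14.08, 14.25 and 14.15 in the Ikaros libraries. The lowest control stood 1.24 above the highest Ikaros value, and the difference was -1.46 ± 0.13 (SE), a 2.74-fold lower level, at an adjusted p of 2.41e-10 in limma. At 24 h the Ikaros mean was 13.26 and the difference -2.30, the lowest of all 69 genes.

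Psph (ENSMUSG00000029446, chr5:129765558-129787449, minus strand) removes the phosphate in the last step to serine. Its control values were 13.09, 13.13 and 13.82 and its Ikaros values 12.30, 12.47 and 12.18, again without overlap, with the batch 4 control apart from the other two. The difference was -1.03 ± 0.17 (adjusted p 8.15e-06, limma), and it was -1.33 at 24 h. Shmt2 (ENSMUSG00000025403, chr10:127517123-127522444, minus strand), the mitochondrial enzyme that turns serine into glycine and a one-carbon unit, read 17.51, 17.47 and 17.04 in the control and 16.11, 16.26 and 16.11 in the Ikaros cells. Here the batch 4 control was the lowest of the 3 and still lay above every Ikaros value. The difference was -1.18 ± 0.18 (adjusted p 3.41e-06, limma), and -1.91 at 24 h.

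The rest of that pathway moved as well, and the rule decides which of its genes are among the 69. At 12 h the median difference of the serine and one-carbon list was -0.37, with Phgdh at -0.37, Shmt2 at -0.36 and Psph at -0.09. A difference in timing between these genes and the rest of the list was not tested. Of the 12 genes of the serine and one-carbon list in the table, 10 were called lower at 18 h, 1 higher (Ahcy, 0.27) and 1 not (Mtr), with a list median of -1.07. Mthfd2 and Mthfd1, enzymes that carry one-carbon units on folate, had 18 h differences of -1.75 and -1.45, and Cth, which makes cysteine, of -1.81. These 3 were not among the 69 because their 12 h differences of -0.79, -0.69 and -0.76 were already past the limit. Psat1, the enzyme between Phgdh and Psph, had differences of -0.62 (12 h) and -0.49 (18 h), and with -0.91 did not reach the 24 h threshold.

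DNA synthesis, repair and cell division gave 10 genes, and all 10 were called lower at 18 h, with a median of -0.71 and a range from -1.11 to -0.44. Chek1 (ENSMUSG00000032113, chr9:36708482-36727065, minus strand), the checkpoint kinase of stalled replication, read 13.14, 13.33 and 13.00 in control and 12.07, 12.24 and 11.82 in Ikaros cells. The groups did not overlap in any batch, and the difference was -1.11 ± 0.12 (adjusted p 1.20e-08, limma). Ung (ENSMUSG00000029591, chr5:114130386-114139323, plus strand), which cuts uracil out of DNA, read 13.07, 12.95 and 12.98 against 11.97, 12.04 and 11.85. Its controls were within 0.13 of each other, and the difference of -1.04 ± 0.14 (adjusted p 6.18e-07, limma) was followed by -2.01 at 24 h.

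Dut, which destroys dUTP and so keeps uracil out of new DNA, read 15.24, 15.23 and 15.89 against 14.68, 14.87 and 14.68. Its difference was -0.71 ± 0.19 (adjusted p 0.00297, limma), but the call was lost without batch 4. Xrcc3, a homologous recombination protein, read 11.44, 11.47 and 11.68 against 10.97, 11.19 and 11.11, without overlap. It was the weakest fall of the group at -0.44 ± 0.09 (adjusted p 0.000228, limma). Donson (replication fork protection, -0.84), Gtf2h4 (a TFIIH subunit, -0.70), Pbk (a mitotic kinase, -0.70) and Cenpi (a centromere protein, -0.65) fell as well.

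Of all 1168 genes that met the level and were low at 24 h, 94.1% had been outside the early limit at some time, and the counts by list below are to be read against that share. Of the 24 genes of the deoxynucleotide list in the table, 22 were called lower and 1 higher at 18 h, with a median of -1.23. At 24 h 17 of them met the level and the -1.2 threshold, of which 2, Dut included, were among the 69 and 15 had been below -0.4 at an earlier time. Tyms, the thymidylate synthase, was one of these 15, with -1.28 at 6 h and -2.41 at 18 h. Of the 24 homologous recombination and Fanconi genes 15 were called lower and 2 higher, and 2 of the 6 that were low at 24 h were among the 69. None of the genes on the lists for replication licensing, replication fork and mitosis was. The mitosis and G2/M list, which does not hold Pbk or Cenpi, was split at 18 h, with 6 of its 30 measured genes called lower, 7 higher and 17 not called and a median of 0.13.

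Histones gave 4 genes, with calls for 2 of them. Hist2h4 read 10.30, 10.34 and 11.83 in control and 9.57, 9.83 and 9.65 in Ikaros cells, where the batch 4 control stood 1.49 above the next value. Its difference was -1.14 ± 0.40 (adjusted p 0.0176, limma), and it lost the call when replicate 1 or 3 was left out and with only the 18 h libraries. Without batch 4 the difference was -0.62 (adjusted p 0.164, limma). Hist1h3d read 9.87, 10.27 and 11.12 against 9.37, 9.83 and 9.83, without overlap, at -0.74 ± 0.32 (adjusted p 0.0457, limma), and its call was lost without any 1 of the 3 replicates. Hist1h3f (-0.97 ± 0.52) and Hist2h2ac (-0.20 ± 0.22) were not called, at adjusted p 0.109 and 0.452 in limma, and their groups overlapped. At 24 h the 4 differences were between -1.89 and -1.46. Over the 26 genes of the histone list 4 were called lower and 3 higher at 18 h, with a median of -0.22. Replication-dependent histone genes come in near-identical copies and most of their mRNA lacks a poly(A) tail, so single histone genes are uncertain in poly(A) libraries.

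Mitochondrial proteins gave the most genes, 12, of which 11 were called lower at 18 h. Clpb (ENSMUSG00000001829, chr7:101663633-101795506, plus strand), a disaggregase of the intermembrane space, read 11.50, 11.69 and 12.18 in control and 10.34, 10.40 and 10.34 in Ikaros cells. The Ikaros values were within 0.06 of each other and the controls spread over 0.69, and the difference was -1.43 ± 0.18 (adjusted p 1.38e-07, limma). It was -1.42 at 24 h. Without batch 4, whose control was the highest, the 18 h difference was -1.23, and the Ikaros mean went from 10.36 at 18 h to 10.08 at 24 h.

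Coenzyme Q, the electron carrier of the respiratory chain, has 2 of its synthesis enzymes in the group. Coq2 read 12.57, 12.87 and 13.18 against 11.44, 11.61 and 11.66, a difference of -1.30 ± 0.17 (adjusted p 4.14e-07, limma), and Coq6 differed by -0.83 ± 0.20. The mitochondrial ribosome gave Mrpl55, with 11.81, 12.12 and 12.42 against 10.99, 11.02 and 10.79, and Mrps22, with 13.36, 13.14 and 13.44 against 12.24, 12.59 and 12.66. Their differences were -1.19 ± 0.18 and -0.82 ± 0.16, and neither had overlapping groups. Trap1, the mitochondrial Hsp90, had the smallest standard error of the 69 genes and read 14.69, 14.76 and 14.66 against 13.84, 13.94 and 13.89 (-0.82 ± 0.07).

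Respiratory complexes were represented by Ndufb6 of complex I, Uqcr10 of complex III and the complex IV assembly factor Cox16. Ndufb6 read 14.57, 14.62 and 15.68 against 14.21, 14.13 and 14.03, where the batch 4 control stood 1.06 above the next value, and its difference of -0.83 ± 0.24 (adjusted p 0.00423, limma) lost the call without batch 4. Uqcr10 (-0.88 ± 0.24) lost its call in the same way. Cox16 (-0.82 ± 0.43) was not called at an adjusted p of 0.103 in limma. It read 11.13, 11.16 and 12.94 against 11.10, 10.88 and 10.77, where the batch 4 control stood far above the others. Its groups did not overlap, but the lowest control was barely above the highest Ikaros value. Bola3, an iron-sulfur assembly factor, differed by -1.08, Bckdhb, of branched-chain keto acid breakdown, by -0.95, and 1110001J03Rik (Fmc1 in the annotation, an ATP synthase assembly factor) by -0.79, the last of which lost its call in 5 of the 10 other fits, namely without replicate 2 or 3, with only the 18 h libraries with or without pairing, and after removal of a GC and length trend.

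These were single genes out of long lists. Of the 73 mitochondrial ribosomal protein genes measured, 53 were called lower and 5 higher at 18 h (median -0.73), and 12 were low at 24 h, of which 1, Mrps22, was among the 69 and 11 had been below -0.4 earlier. Mrpl55 is not on that list. Of 28 genes for mitochondrial import and protein quality 23 were called lower and 0 higher (median -0.94), with 1 (Trap1) of the 15 that were low at 24 h. Of 49 oxidative phosphorylation genes 22 were called lower and 2 higher (median -0.35), with 1 (Ndufb6) of 5.

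The endoplasmic reticulum, the Golgi and the making of sugar chains and lipids gave 11 genes, of which 10 were called lower at 18 h. Alg8 (ENSMUSG00000035704, chr7:97371606-97392185, plus strand) adds a glucose to the lipid-linked sugar precursor of N-glycans, and Dpagt1 starts that precursor. Alg8 read 12.54, 12.49 and 12.19 in control and 11.58, 11.41 and 10.87 in Ikaros cells, with a difference of -1.12 ± 0.18 (adjusted p 6.43e-06, limma). Dpagt1 read 13.41, 13.03 and 12.71 against 12.89, 12.65 and 12.49, where the groups overlapped and the difference of -0.37 ± 0.18 missed the threshold at an adjusted p of 0.0716 in limma. It passed without batch 4. At 24 h the differences were -1.89 and -1.40.

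Ctage5 (Mia2 in the annotation), which helps large cargo leave the endoplasmic reticulum, read 12.78, 12.91 and 13.42 against 11.70, 11.73 and 11.66, a difference of -1.34 ± 0.18 (adjusted p 3.33e-07, limma). Gmds, the first enzyme of GDP-fucose synthesis, read 13.26, 13.43 and 14.06 against 12.36, 12.44 and 12.43 and differed by -1.17 ± 0.19. The Ikaros libraries lay within 0.07 of each other in either gene, and the batch 4 control was the highest value in both. The other 7 were Ppapdc1b (Plpp5 in the annotation, a lipid phosphatase, -1.0), Tmco1 (an endoplasmic reticulum calcium channel, -0.93, a call lost with only the 18 h libraries and pairing), Slc35d1 (a nucleotide sugar transporter, -0.90), Hsd17b12 (fatty acid elongation, -0.89), Pitpnm2 (a phosphatidylinositol transfer protein, -0.81), Piga (the first step of the GPI anchor, -0.73) and Golt1b (Golgi transport, -0.70). On the N-glycosylation list 17 of 28 genes were called lower and 2 higher at 18 h (median -0.43), and 7 were low at 24 h, 2 of them among the 69.

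Sugar, inositol and purine enzymes gave 4 genes, of which 3 were called lower at 18 h. Eno1 (ENSMUSG00000063524, chr4:150236721-150248879, plus strand), the enolase of glycolysis, read 18.29, 18.48 and 18.62 in control and 17.65, 17.46 and 17.28 in Ikaros cells, without overlap. The difference was -1.0 ± 0.14 (adjusted p 1.29e-06, limma), a 2.00-fold lower level, and grew to -2.12 at 24 h. Impa2, an inositol monophosphatase, read 14.62, 14.43 and 14.38 against 13.15, 13.37 and 13.20, a difference of -1.24 ± 0.10 (adjusted p 1.02e-10, limma). Aprt, of adenine salvage, differed by -0.46 ± 0.12 and lost its call without replicate 1. Galk1, which phosphorylates galactose, read 15.49, 15.41 and 15.99 against 15.48, 15.32 and 15.32, with overlap, and at -0.25 ± 0.16 was not called (adjusted p 0.188, limma).

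Eno1 was the only one of the 69 genes on the glycolysis and lactate list. Of the 26 genes of that list that were measured, 14 were called lower and 3 higher at 18 h (median -0.70), and 16 met the level and 24 h threshold. Of the other 15, 13 had been above 0.4 at an earlier time and none of those 13 below -0.4, which is the reverse of the deoxynucleotide and mitochondrial lists. Ldha, lactate dehydrogenase A, was one, with differences of 0.63 (2 h), -0.14 (12 h), -1.62 (18 h) and -2.91 (24 h). Pgam1, the enzyme just before enolase, had 0.88 at 6 h and -1.62 at 24 h. Eno1 itself had 0.33 at 2 h and 0.26 at 6 h, inside the limit.

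**Figure D4:**
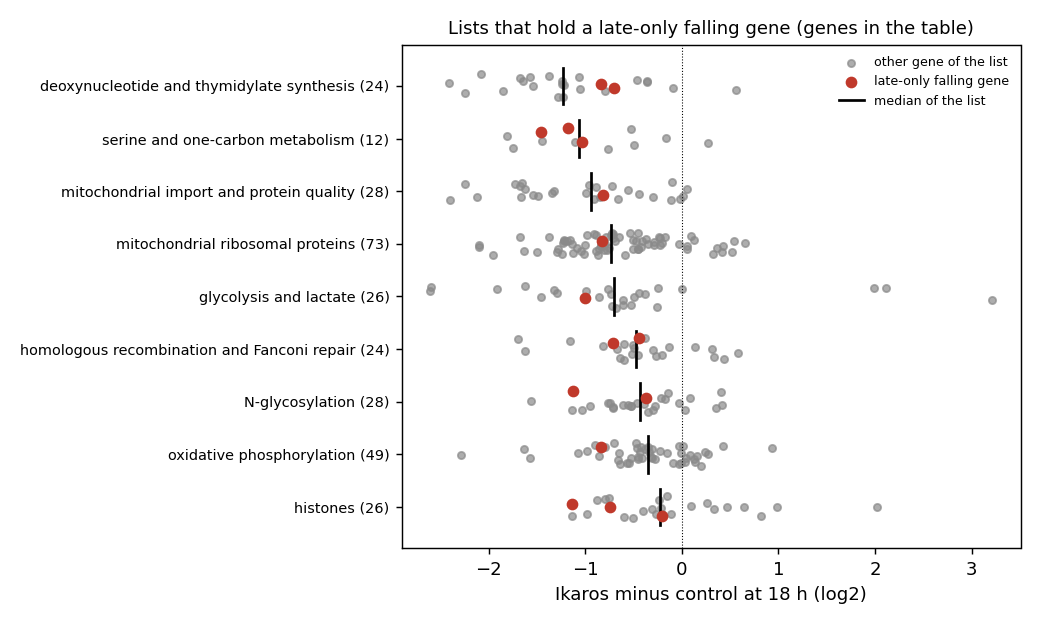
Ikaros minus control difference at 18 h (horizontal axis, log2) of every gene in the table on the 9 pathway lists that hold any of the 69 genes, with those genes in red, other genes in grey and a bar at the median of each list. List medians run from -1.23 for deoxynucleotide synthesis to -0.22 for histones, and the red points lie among the other genes of their lists except for Hist2h4 at -1.14, the lowest of the histones, which is at -0.62 without batch 4.

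Protein assembly, RNA processing and polyamines gave 7 genes, with calls for 5. Ppil1 (-1.10 ± 0.09) and Prpf19 (-0.82 ± 0.08) are spliceosome components, Psmg1 (-0.83 ± 0.09) and Psmg4 (-0.67 ± 0.29) help assemble the proteasome core, Cops7a (-0.70) belongs to the COP9 signalosome and Dtwd2 (-0.74) modifies tRNA. Dtwd2 lost its call without batch 4. Psmg4 was not called at an adjusted p of 0.0526 in limma, but was with the culture batches paired over all libraries, though not with the 18 h libraries alone. Azin1, which protects polyamine synthesis from antizyme, read 14.12, 13.71 and 13.82 against 13.60, 13.48 and 13.26. Its groups did not overlap, but the difference of -0.43 ± 0.24 was not called (adjusted p 0.130, limma).

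Of 14 genes placed in no group above, 13 were called lower at 18 h. Col26a1, a collagen gene, read 12.50, 12.41 and 12.75 against 11.28, 11.33 and 10.98, a difference of -1.36 ± 0.12 (adjusted p 1.26e-10, limma), and stood at -1.40 at 24 h. Pcgf2, a Polycomb ring finger protein, read 11.52, 11.48 and 11.86 against 10.42, 10.54 and 10.32 (-1.19 ± 0.17, adjusted p 8.37e-07, limma). Both sets of values were far from overlapping. BC048403 read 10.91, 10.76 and 10.71 against 9.57, 9.59 and 9.80 (-1.14 ± 0.22). The cytokine gene Mif, at -0.59 ± 0.15, had the highest mean level of the 69 genes (20.02). Slc35g1, a solute carrier, read 10.89, 10.72 and 10.13 against 10.10, 10.27 and 10.28, with overlap, and was not called at -0.36 ± 0.17 (adjusted p 0.0713, limma), but was with the batches paired over all libraries or batch 4 left out, and not with the 18 h libraries alone, paired or not. The remaining 9 were called, from 2610318N02Rik at -1.13 to Tagln2 at -0.51, and Tlcd1, Tmem107, Rnf149, Ssbp4, Spag4, Sergef and Tmem209 lay between.

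**Figure D5:**
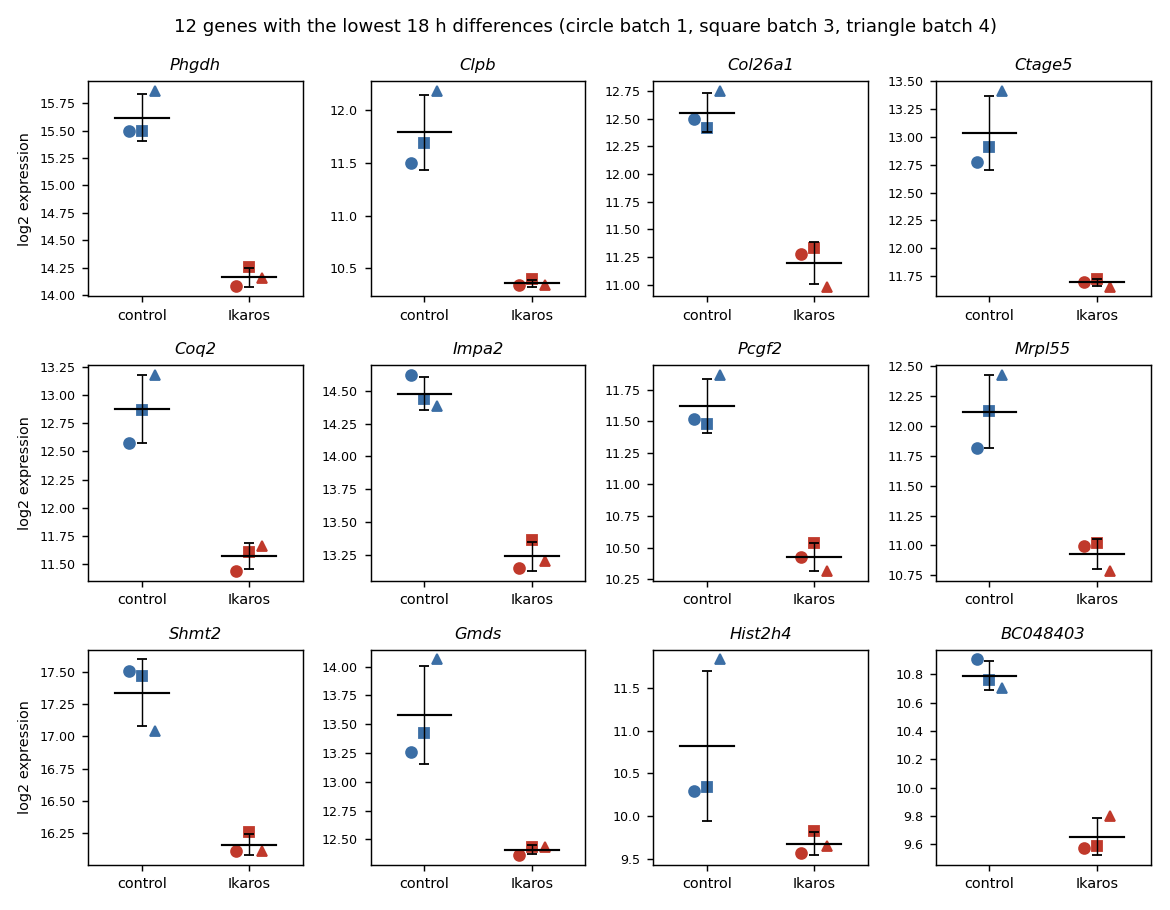
Log2 expression at 18 h (vertical axis, scaled to each gene and not starting at 0) in the 3 control and 3 Ikaros libraries for the 12 genes with the lowest 18 h differences among those called, with a symbol for each culture batch and bars for the mean and SD. The 3 Ikaros values lie below the 3 control values in each panel, and in Hist2h4 the batch 4 control at 11.83 is apart from the other two at 10.30 and 10.34.

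Pseudogenes and noncoding genes made up 4 of the 69, and 2 of these were called. The lincRNA ENSMUSG00000097772 (5430416N02Rik in the annotation) differed by -1.05 ± 0.13, and the processed pseudogene Gm15920 by -0.54 ± 0.23 with overlapping groups and an adjusted p of 0.0493 in limma, a call lost without replicate 1 or 2. The processed pseudogene Gm15210 (-0.62 ± 0.28) and the processed transcript 2810408I11Rik (-0.68 ± 0.30) were not called, at adjusted p of 0.0610 and 0.0502 in limma, although Gm15210 passed with the batches paired and 2810408I11Rik without replicate 2. Reads of processed pseudogenes can come from their parent genes, so these values are uncertain, and the same holds for Eno1 and Mif, which have near-identical copies elsewhere.

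Not all genes had gone equally far by 18 h. The 18 h difference was on median 60.8% of the 24 h difference, from 12.2% in Hist2h2ac to 101% in Clpb (whose 18 h value includes the high batch 4 control), and at least 75% in 9 genes. Mrpl55 (98.6%), Col26a1 (96.6%), Gmds (88.4%), Coq2 (86.2%) and Ctage5 (85.5%) followed Clpb. In each of them the batch 4 control was also the highest, by 0.25 (Col26a1) to 0.64 (Gmds) over the next control. Their shares include that library as well. At the other end Galk1 reached 18.4%, Slc35g1 22.4%, Dpagt1 26.6% and Azin1 30.3%. By role group the median share was 66.9% for mitochondrial proteins, 64.4% for the endoplasmic reticulum group, 63.9% for the genes in no group, 63.2% for serine metabolism, 59.2% for protein assembly and RNA, 52.9% for histones, 51.4% for DNA synthesis and repair, 44.5% for pseudogenes and noncoding genes and 41.8% for the sugar, inositol and purine enzymes. These shares rest on the 24 h values that chose the genes and are given as a description.

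Against the other genes that were low at 24 h, the 69 were a small part. Of 9584 genes at the level minimum, 1168 had a 24 h difference of -1.2 or lower, and 1099 of these were outside the early limit. Of the 1099, 958 had only been below -0.4 at an earlier time, 51 only above 0.4 and 90 had been both, and at 12 h alone 982 were below -0.4. Their median differences were -0.96 (12 h), -1.49 (18 h) and -1.74 (24 h), with a median share of 83.7% at 18 h. The mirrored rule gave 50 genes that were late and high in Ikaros cells, with median differences of 0.90 (18 h) and 1.39 (24 h) and a median share of 66.2%. No test was made between these sets, since the early and late values define them.

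Many genes lay close to the thresholds. The genes just inside the 24 h threshold, among them Prpf19, Mrpl55, Tmco1 and Cox16, had values from -1.204 to -1.201. Pdia6, Sac3d1, Hnrnpd, Anapc15 and Ybx1, just outside it, had values from -1.196 to -1.185. When the rule was applied to 2 of the 3 replicates, it gave 83, 76 and 69 genes without replicates 1, 2 and 3, of which 46, 48 and 40 were among the 69. In the replicate left out, their median 24 h differences were -1.31, -1.21 and -1.47, and 54, 38 and 54 of them passed -1.2 there. In that same replicate 26 of the 83, 39 of the 76 and 21 of the 69 kept within 0.4 at 0, 2, 6 and 12 h.

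The 69 genes were spread over 20 chromosomes, and 63 of the 67 found in the GENCODE annotation of GRCm38 were protein-coding. Their longest transcripts had a median of 2289 bases and 50.6% GC, against 3071 bases and 49.6% for all genes of the table. In 16 of the 67 an exon faced a gene on the opposite strand, as for Shmt2 (Ndufa4l2), Psph (Cct6a), Xrcc3 (Klc1), Trap1 (Dnase1), Ndufb6 (Smim27) and Azin1 (Gm49077), and in 5 an exon overlapped a gene on the same strand. The kit kept the strand, but the setting used in counting is not given in the sources used here, so these values may include reads of the neighbour.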

How the data were processed

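Poly(A) RNA was sequenced in 36 libraries of the B3 line. The authors aligned reads to mm10 with TopHat2, counted them per gene with HTSeq, normalized with cqn for GC content and length and adjusted with ComBat, and deposited log2 values shifted so that the lowest of the table is 1. The base of the logarithm follows from cqn and is not stated in the table. The study states the depth it aimed at, but the table does not give the depth reached in each library. The study also reports high read duplication in most samples and an excess of GC in some. Precision is limited by 3 libraries per group. Batch adjustment before deposition may make standard errors too small.

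All 12762 genes were fitted with limma 3.58.1 (R 4.3.3, lmFit and eBayes) with a mean for each of 12 groups. The contrast was Ikaros minus control at 18 h, two-sided, with Benjamini-Hochberg adjustment over all genes and a call at an adjusted p under 0.05. The fit was tested on simulated data. Replicates are culture batches, and p-values rest on the spread between the libraries of a group, pooled over the 12 groups. By the study's methods, the cells of a line were divided into flasks for the time points. Libraries of a batch at different times are therefore not independent, which the main fit does not model. The labels give a shared batch number to both lines, which pairs the libraries. Across genes, Pearson r of the deviations of paired libraries was -0.06 to 0.51, above 0.1 in 12 of 18 pairs.

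The genes, 34 pathway lists, role groups and motifs were chosen with earlier results of these data known. Named were the 12 called genes with the lowest 18 h differences and no overlap, the 8 lowest at 24 h, the 6 highest at 18 h, genes at the threshold, every gene on a list, and the rest by role. Only the 16 genes on 9 of the 34 lists are described by list, and the other 25 lists held none. Sequences were matched by Ensembl identifier or symbol. No stretch was matched for Azin1, Col26a1, Dpagt1, Gm15210, Gm15920, Hist1h3d, Hist1h3f, Hist2h2ac, Hist2h4, Pbk and Ppapdc1b, among others. Of the 69 genes, 2 are counted but not reported singly here. Alternatives were the batch as a replicate block, 18 h libraries alone, an expression filter, quantile normalization, eBayes with trend and robust settings, removal of a GC and length trend, and leaving out each replicate.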

Additional observations from a re-analysis of the deposited data

How the results depend on the processing

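Of the 59 genes called lower at 18 h, 49 were called in each of the 10 other fits that tested them, 0 of the 69 had a positive difference in any, and 64 were called in at least 1. The count was 62 with the batches paired as a replicate block (Gm15210, Psmg4 and Slc35g1 joined, and no other call of the 69 changed), 55 with only the 18 h libraries (1110001J03Rik, Gm15920, Hist1h3d, Hist2h4 and Ndufb6 lost, Gm15210 joined) and 51 with both choices (Aprt, Dut, Tmco1 and Uqcr10 lost as well). It was 59 after quantile normalization, 61 with a filter on low expression, 61 with the trend and robust settings, and 57 of 67 after removal of a GC and length trend. Leaving out a replicate gave 54 to 57, and requiring a difference of -1 gave 21. In the main fit 29.2% of all genes were called lower, and 13.8% with a difference of -1. The shares of all genes in the other fits are not given here. A changed count can therefore not be told apart from a changed number of calls over all genes. No fit called any of the 69 higher, leaving out a replicate included (0 to 0). The median 18 h difference was -1.10 within batch 4 and ran from -0.91 to -0.72 without each replicate. Without the histone, pseudogene and noncoding genes, an alternative added after the data were seen, it was -0.83. The number of genes meeting the rule moved most, to 159 with a 24 h threshold of -1.0 and 22 with -1.5, and to 30 with an early limit of 0.3 and 134 with 0.5. It was 69 to 83 without each replicate. These moves follow from the rule itself. The 3 libraries per group limit what can be called, and genes with a wide batch 4 control, such as Hist2h4, Dut, Ndufb6 and Uqcr10, rest on that library.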
